A study of Homo sapiens with 11 samples.

Results

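The machinery of DNA methylation was followed through 9 genes, the DNA methylation writers DNMT1, DNMT3A and DNMT3B with the DNMT1 partner UHRF1, the erasers TET1, TET2, TET3 and TDG, and the methyl-CpG reader MBD2. They were chosen by name and matched on the gene symbol, and all 9 were found among 23609 symbols, each at a single locus. The cells were A549, a widely used human line from a lung adenocarcinoma. They had been kept with DMSO as vehicle, or with the collected particulate matter of tobacco smoke (cigarette smoke condensate, CSC). There were 2 DMSO and 3 CSC libraries at 48 hours, and 3 of each at 2 weeks. The titles give the CSC amount as 20 uM, a molar unit that is unusual for a mixture, and no library was untreated. CSC is compared with vehicle at the same duration, and 2 weeks with 48 hours within each treatment. All libraries come from a single cell line. The labels number the replicates but do not say that they came from separate cultures, so p-values measure the spread between these libraries, which may be technical. DNA methylation itself was not measured in these libraries, and the results are transcript levels only.

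DNA methylation in mammals is laid down at CpG dinucleotides. DNMT3A and DNMT3B methylate DNA that carries no methyl group, while UHRF1 binds the hemimethylated CpGs left by replication and brings in DNMT1, which copies the mark to the new strand. The TET enzymes oxidize methylcytosine to hydroxymethylcytosine and further products, using alpha-ketoglutarate, and the glycosylase TDG cuts out the most oxidized bases for repair. MBD2 binds methylated CpGs and recruits the NuRD complex, which holds histone deacetylases and a nucleosome remodeler. In smokers, altered methylation is best known near genes of the aryl hydrocarbon receptor pathway, such as AHRR.

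Sequence at an annotated start is shown for the maintenance pair, DNMT1 and UHRF1, whose windows held the E2F matches, and for DNMT3B, the member called between CSC and DMSO. The stretches are from RefSeq on GRCh38.p14 and run 5′ to 3′ on the gene's own strand, from 150 bases before the annotated start to 10 bases past it. For DNMT3B 1 start was available here, where 2 are listed with the deposited values on hg19. Its place among them was not checked, so the stretch may lie inside the gene and not at its 5′ end. Capitals mark a match to an E2F motif in DNMT1 (chr19:10194944-10195103, minus strand) and UHRF1 (chr19:4909351-4909510, plus strand), and CpG dinucleotides in DNMT3B (chr20:32779702-32779861, plus strand).
DNMT1: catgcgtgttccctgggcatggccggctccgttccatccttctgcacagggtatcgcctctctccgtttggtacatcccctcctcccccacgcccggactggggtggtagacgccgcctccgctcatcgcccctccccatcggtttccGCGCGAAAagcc
UHRF1: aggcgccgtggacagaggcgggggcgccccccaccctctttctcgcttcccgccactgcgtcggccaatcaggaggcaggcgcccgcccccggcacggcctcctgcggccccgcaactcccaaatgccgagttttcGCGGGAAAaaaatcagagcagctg
DNMT3B: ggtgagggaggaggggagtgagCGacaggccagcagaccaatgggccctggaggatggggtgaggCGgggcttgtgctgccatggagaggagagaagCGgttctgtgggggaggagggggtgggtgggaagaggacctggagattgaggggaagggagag

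The E2F search used TTTCCCGC, TTTCGCGC, TTTGCCGC and TTTGGCGC on both strands of windows of 300 bases, 250 of them before the start. All 9 members matched the table, with 20 windows in all. A match lay in 3 windows of 2 members, DNMT1 and UHRF1, against 3.31% of the 35116 windows of all genes. The core of the aryl hydrocarbon receptor element, GCGTG on both strands, lay in 8 windows of 6 members, against 36.54% of all windows, and no match of one motif overlapped a match of the other. DNMT3A, DNMT3B and TET2 had no GCGTG in these windows. The 250 bases before the start held 3 CpGs in the 1 DNMT3B window, 21 in DNMT1 and 28 in the UHRF1 window shown. Of all windows 29.3% held no more than that DNMT3B window. At least 1 of the 2 listed DNMT3B starts was not scanned, so its CpG count and lack of GCGTG hold for this window only. These matches describe the letters of the windows and not binding.

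Levels are given as the deposited FPKM (sequenced fragments scaled by transcript length and library total), which allows genes to be compared per length. Over the 11 libraries the mean level was 28.2 ± 3.81 (SD, n = 11) for UHRF1, 24.2 ± 2.22 for DNMT1, 11.3 ± 1.58 for TDG, 6.38 ± 1.05 for MBD2 and 5.88 ± 0.923 for DNMT3A. The lower 4 were TET3 at 4.47 ± 0.249, DNMT3B at 3.11 ± 0.982, TET2 at 2.44 ± 0.324 and TET1 at 1.16 ± 0.221. The maintenance pair thus stood above every other member in all 11 libraries, and the oxidizing enzymes and DNMT3B made up the low end. Each gene lay above the next in this order in 11 of 11 libraries, except MBD2 over DNMT3A (10), TET3 over DNMT3B (9) and DNMT3B over TET2 (8). The means of MBD2 and DNMT3A, and of DNMT3B and TET2, lay closer than the SD of the more variable gene of the pair. TET1 was near the limit used for testing, an FPKM of 1 in at least 2 libraries, and all 9 members passed it.

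**Figure D1:**
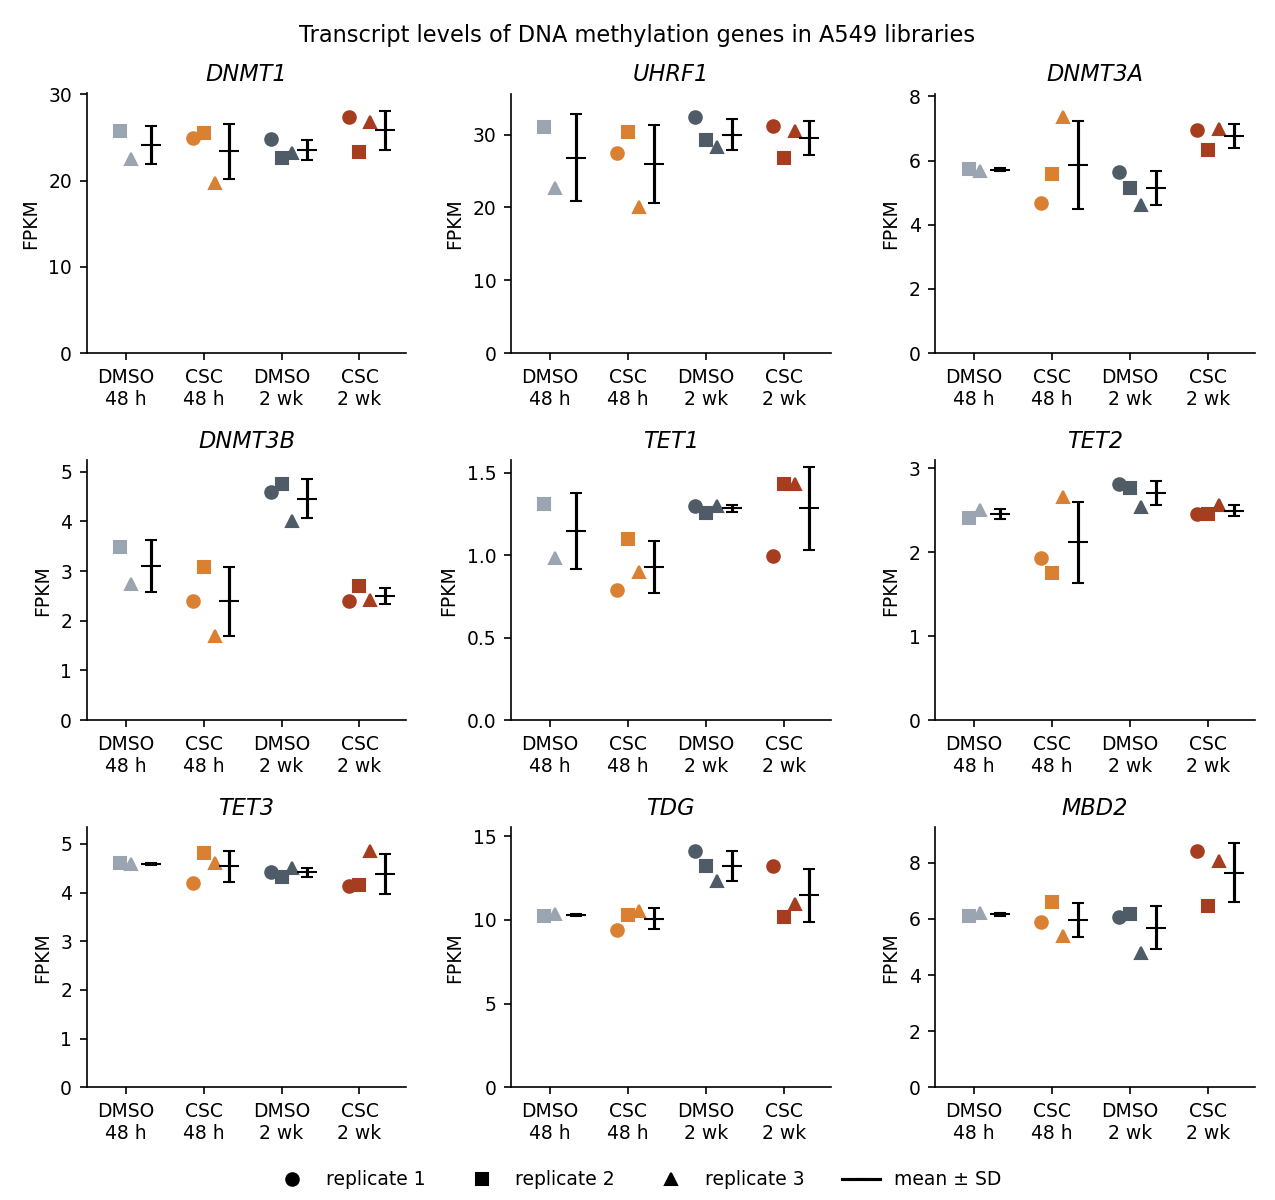
FPKM of each of the 9 genes (vertical axes, starting at 0) in the 4 groups, with a symbol for each library by its replicate number and the mean ± SD of the group in black. DNMT3B lies between 4.01 and 4.75 in DMSO at 2 weeks and between 2.39 and 2.69 in CSC at 2 weeks, while TET3 lies between 4.14 and 4.85 in all 11 libraries.

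The members differed in how much they varied. TET3, the TET enzyme most abundant here, had a coefficient of variation of 5.56% over the 11 libraries, and its SD on the log2(FPKM + 0.5) scale was at or above that of only 0.496% of the 12506 genes tested. DNMT3B was the most variable member, at 31.5%, with an SD at or above that of 90.0% of tested genes. The remaining members had coefficients of variation between 9.14% (DNMT1) and 18.98% (TET1). The half-width of the deposited bounds, which reflects counting depth within a library, was 13.2% to 29.1% of the level for DNMT3B, 4.55% to 7.59% for DNMT1 and 11.5% to 25.9% for TET1. It did not follow the level alone: TET3, at a lower level than TDG, had half-widths of 6.57% to 10.99% against 9.46% to 15.99% for TDG.

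Libraries and cells were checked once against the labels. Keratins KRT8 and KRT18 were abundant in every library, between 573 and 1765 FPKM. The epithelial marker EPCAM was lower, between 2.59 and 8.15. Of 19 markers of leukocytes, fibroblasts, endothelium and alveolar type II cells, 15 stayed below an FPKM of 1 in all libraries. The leukocyte marker PTPRC reached at most 0.0282, and the surfactant gene SFTPC that defines type II cells at most 0.157. The 4 markers that reached 1 were CD14, LYZ, COL1A1 and ABCA3. The summed leukocyte list, most of it CD14 at 2 weeks, was 2.30 to 2.63 FPKM in DMSO and 1.30 to 2.29 in CSC at 48 hours, and 2.37 to 2.70 in DMSO and 3.28 to 4.45 in CSC at 2 weeks. The summed fibroblast list, nearly all COL1A1, was 4.10 to 6.55 in DMSO and 4.01 to 5.20 in CSC at 48 hours, and 11.0317 to 11.9 in DMSO and 7.22 to 9.58 in CSC at 2 weeks. COL1A2 and DCN were listed at 0 in every library. The type II list, nearly all ABCA3, ranged from 9.18 to 12.7. The part of these markers in the results below was not tested. The depth in reads is unknown, but the deposited bounds put CSC 2 weeks replicate 2 at a relative depth of 2.85 and the other 10 libraries at 1 to 1.55. CSC 48 hours replicate 3 stood apart in its growth-related genes. The median of 25 DNA replication genes there was -0.43 against the mean of all libraries (log2), where the other libraries lay between -0.06 and 0.30.

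CSC against DMSO at 2 weeks asks how the members stood after prolonged exposure. DNMT3B was lower under CSC, and it was the member of the 9 that passed the test. Its FPKM was 4.60, 4.75 and 4.01 in the DMSO libraries and 2.39, 2.69 and 2.42 in the CSC libraries. Every CSC library lay below every DMSO library. The group means were 4.45 ± 0.392 and 2.50 ± 0.165 (SD, n = 3 each), a decrease of the mean by 43.8%. On the log2(FPKM + 0.5) scale the difference was -0.72 ± 0.17 (SE), with a 95% interval of -1.08 to -0.36 and an adjusted p of 0.0265 (limma, Benjamini-Hochberg over all genes tested). Over all genes 5.41% were called in this comparison, and 2.4% were called lower. A single call is the smallest count above 0 that 9 members can give, so nothing about the set is read from it. In RNA from bulk cultures, fewer expressing cells and less RNA per cell cannot be told apart. The call did not survive the omission of any 2-week library except CSC replicate 2. Leaving out DMSO replicate 1, 2 or 3 gave an adjusted p of 0.0911, 0.102 or 0.064, and leaving out CSC replicate 1 or 3 gave 0.0935 or 0.103, while the difference stayed between -0.68 and -0.79.

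DNMT3A, the other enzyme that methylates unmarked DNA, had higher values under CSC and did not pass the test. Its FPKM was 5.66, 5.16 and 4.62 in DMSO and 6.96, 6.32 and 6.97 in CSC at 2 weeks. Again the groups did not overlap, here with CSC above. The difference was 0.36 ± 0.14 (SE) on the log2 scale, with an interval of 0.06 to 0.67, an unadjusted p of 0.0224 and an adjusted p of 0.139 (limma). MBD2 showed the same order of groups, with 6.07, 6.18 and 4.79 FPKM in DMSO and 8.42, 6.46 and 8.08 in CSC. Its difference was 0.40 ± 0.13 (adjusted p = 0.0889, limma). CSC replicate 2, the library with the highest relative depth (2.85), was the lowest of the CSC libraries for both genes. Without it MBD2 passed the test, at 0.51 with an adjusted p of 0.0277 (limma). No other single omission called MBD2, and its difference then lay between 0.29 (DMSO replicate 3 left out) and 0.46 (DMSO replicate 2 left out). Median-of-ratios, common-sum and quantile scaling brought it to 0.31, 0.26 and 0.32, also without a call. DNMT3A was not called after any single omission (0.30 to 0.43), nor under those scalings (0.28, 0.23 and 0.29). Library weights, treated below, called both genes higher. Groups that did not overlap were found for 3 of 9 members, 2 higher and 1 lower, against 30.2% of all genes (20.3% higher and 9.84% lower).

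**Figure D2:**
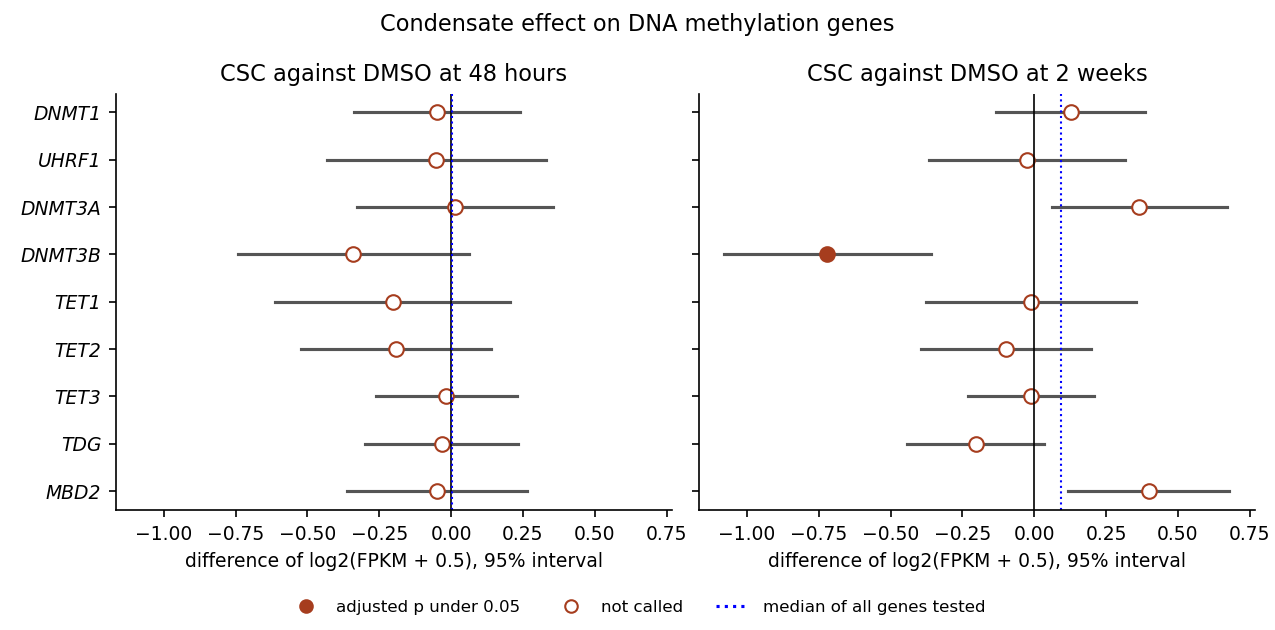
Difference of log2(FPKM + 0.5) between CSC and DMSO (horizontal axis) for each gene at 48 hours (left) and 2 weeks (right), with 95% intervals from limma. A filled circle marks an adjusted p under 0.05, and the dotted line is the median of all genes tested. The filled circle is DNMT3B at 2 weeks, at -0.72.

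The maintenance pair and the erasers showed no call at 2 weeks in the fit described above. With library weights, whose estimation stopped short of its convergence tolerance, DNMT1 was called higher (0.19, adjusted p = 0.0377) and TDG lower (-0.26, adjusted p = 0.00847, limma). DNMT1 was at 24.8, 22.6 and 23.3 FPKM in DMSO and 27.4, 23.3 and 26.8 in CSC, with overlapping groups and a difference of 0.13 (interval -0.13 to 0.39), whose sign turned when every library was scaled to the same sum of FPKM. UHRF1 was at 32.4, 29.3 and 28.3 in DMSO and 31.2, 26.8 and 30.5 in CSC, a difference of -0.02 (interval -0.37 to 0.32). Both intervals allow changes of about the size seen for DNMT3A, so the pair cannot be said to be unchanged.

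Among the erasers, TDG was at 14.1, 13.2 and 12.3 FPKM in DMSO and 13.2, 10.2 and 10.96 in CSC, a difference of -0.20 ± 0.11 (adjusted p = 0.27, limma), and the groups overlapped. With libraries scaled to a common sum TDG was called lower, at -0.34 with an adjusted p of 0.0414. TET1, TET2 and TET3 differed by -0.01, -0.10 and -0.01, with adjusted p-values of 0.975, 0.69 and 0.954. TET3 had the narrowest interval of the 9, -0.23 to 0.21. The median difference of the 9 members was -0.01, against 0.09 for all genes tested.

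At 48 hours no member was called, against 0.288% of all genes. None had an unadjusted p under 0.05 in limma, against 1062 of the 12506 genes tested. With 9 members, no gap between them and all genes is read from these counts. DNMT3B was at 3.48 and 2.74 FPKM in DMSO and 2.40, 3.08 and 1.698 in CSC. The groups overlapped, and the difference was -0.34 ± 0.18 (adjusted p = 0.692, limma). Single libraries moved it, to -0.16 without CSC replicate 3, -0.19 without DMSO replicate 2, -0.49 without DMSO replicate 3 and -0.51 without CSC replicate 2, and none of these fits called it. The lowest value came from CSC replicate 3, the library whose replication genes were also low, and the part of those genes in the DNMT3B value was not tested. DNMT3A was at 5.74 and 5.69 in DMSO and 4.67, 5.59 and 7.35 in CSC, so the CSC libraries lay on both sides of the DMSO libraries. For the remaining 7 members the difference lay between -0.20 (TET1) and -0.02 (TET3), and the median of the 9 was -0.05 against 0.00 for all genes. All 9 had overlapping groups, where 22.8% of all genes did not. The signs for TET3 and TDG turned with a common sum of FPKM.

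Whether the CSC effect differed between durations was tested as an interaction. No member was called, against 0.04% of all genes. An unadjusted p under 0.05 was found for 876 of the 12506 genes tested and for 1 member. That member was MBD2, with a difference of effects of 0.45 ± 0.19 (unadjusted p = 0.0391, adjusted p = 0.702, limma). For DNMT3B the effect at 2 weeks was lower than at 48 hours by -0.38 ± 0.25, with an interval of -0.92 to 0.16 and an adjusted p of 0.754. A stronger DNMT3B difference at 2 weeks than at 48 hours was therefore not shown.

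The DNMT3B comparison at 2 weeks also depends on the level of its vehicle group. DMSO at 2 weeks had the highest mean of the 4 groups, 4.45 FPKM, against 3.11 ± 0.523 in DMSO at 48 hours, 2.39 ± 0.691 in CSC at 48 hours and 2.50 in CSC at 2 weeks. All 3 DMSO libraries at 2 weeks lay above all other libraries of the study. Between durations in DMSO the difference was 0.46 ± 0.18 (adjusted p = 0.321, limma), and in CSC it was 0.08 ± 0.17 (adjusted p = 0.755), with a sign that turned under all 3 other scalings. The first of these shares its DMSO libraries at 2 weeks with the CSC comparison at 2 weeks, so the pair of results is not independent.

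TDG had a like order in vehicle, with 10.2 and 10.3 FPKM at 48 hours and 14.1, 13.2 and 12.3 at 2 weeks. Those groups did not overlap, and the difference was 0.34 ± 0.12 (adjusted p = 0.246, limma). No member was called between durations in DMSO, where 0.768% of genes were. In that comparison 2 members had an unadjusted p under 0.05 in limma, against 1601 of the 12506 genes tested. Groups did not overlap for 5 members, 3 higher and 2 lower at 2 weeks, against 36.6% of all genes (28.8% higher and 7.88% lower). In CSC none of the 9 was called between durations either, against 13.7% of genes. That share belongs to the FPKM as deposited, with 1536 genes higher and 172 lower. It was 184 and 243 with median-of-ratios scaling, 84 and 458 with a common sum, 123 and 201 with quantile normalization, and 57 and 21 when the spread came from the CSC libraries alone, so no gap between the members and all genes is read from it. With the FPKM as deposited, an unadjusted p under 0.05 in limma was found for 4303 of the 12506 genes tested and for 1 member, MBD2. It stood at 0.33 ± 0.13 (adjusted p = 0.0958, limma), and the groups of all 9 members overlapped, against 32.8% of genes that did not.

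Ratios of FPKM within a library do not change when the library is scaled by a single factor, though quantile normalization can change them. The FPKM of DNMT3A over that of DNMT3B was 1.23, 1.09 and 1.15 in DMSO at 2 weeks and 2.91, 2.35 and 2.88 in CSC at 2 weeks. In DMSO at 2 weeks the transcript levels of the enzymes were thus near parity, and in CSC that of DNMT3A stood well above. The ratios of the groups did not overlap. This follows from the groups of DNMT3A and DNMT3B, which did not overlap either, and adds nothing to them. At 48 hours the ratio was 1.65 and 2.08 in DMSO and 1.95, 1.81 and 4.33 in CSC, where CSC replicate 3 alone was high. The FPKM of UHRF1 over DNMT1 was 1.30, 1.29 and 1.22 in DMSO and 1.14, 1.15 and 1.14 in CSC at 2 weeks, and between 1.00 and 1.21 in the libraries at 48 hours. These ratios were chosen after the levels had been seen and carry no test.

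**Figure D3:**
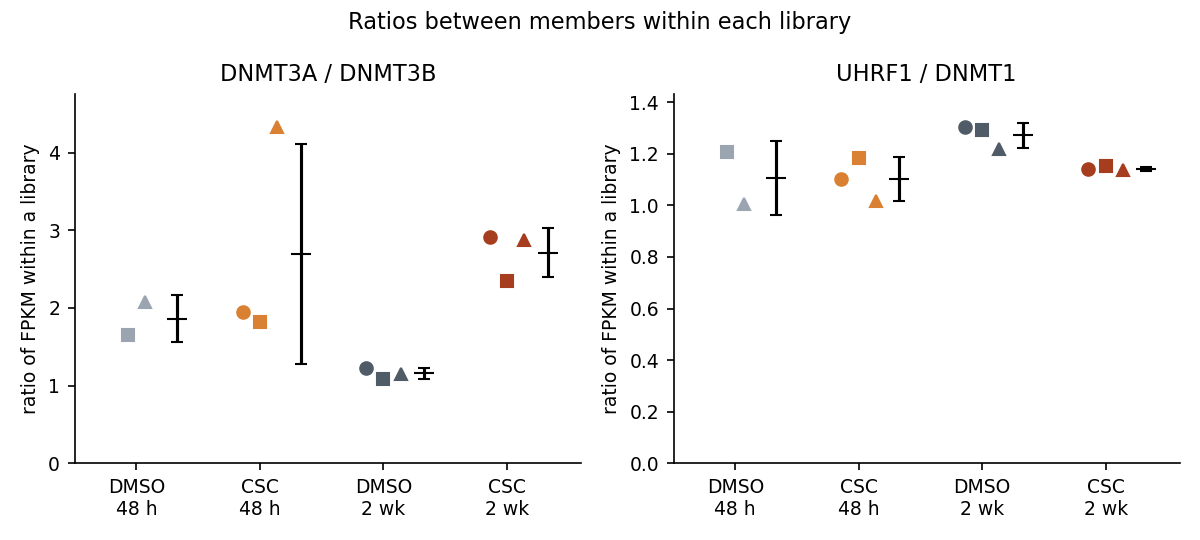
Ratio of FPKM within each library (vertical axes, starting at 0) for DNMT3A over DNMT3B (left) and UHRF1 over DNMT1 (right), by group. Circles, squares and triangles are replicates 1, 2 and 3, and black marks the mean ± SD. The left ratio averages 1.16 in DMSO and 2.71 in CSC at 2 weeks.

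Of the 36 pairs of members, DNMT1 and UHRF1 had the highest coefficient over all 11 libraries. Their log2 levels had a Pearson r of 0.847 over the 11 libraries, 0.949 after the group means were removed and 0.673 without CSC 48 hours replicate 3. Without that library 3 pairs lay above them, DNMT3A with MBD2 at 0.891, DNMT1 with MBD2 at 0.687 and TET2 with TDG at 0.68. Each pair can be set against the coefficients of its first-named gene with all other tested genes over the 11 libraries. DNMT1 with UHRF1 was at or above 97.8% of these. The 3 other pairs, in the same order, were at or above 85.2%, 88.5% and 86.4%. Within groups DNMT3B with UHRF1 reached 0.816 and DNMT3A with TET2 0.806. DNMT3A with DNMT3B had r = -0.62 over the libraries, -0.472 without CSC 48 hours replicate 3 and -0.46 within groups. The first value was at or above that of 0.896% of the other tested genes with DNMT3A. In CSC 48 hours replicate 3 DNMT3A stood at 0.31 and DNMT3B at -0.67 against their means over all libraries (log2). The coefficients within groups were not recomputed without that library and may rest on it. The libraries share treatment, duration and depth, so these coefficients are descriptions. The members were also compared with the median of the 25 replication genes. No share over all genes is given for the coefficients with that median, so it is open whether they are unusual. The coefficient was 0.841 for DNMT1, 0.811 for UHRF1 and 0.708 for MBD2 over all libraries. Without CSC 48 hours replicate 3 it was 0.783 for MBD2, 0.71 for DNMT3A, 0.642 for DNMT1, 0.609 for TDG and 0.544 for UHRF1. For DNMT3B it was 0.387, and -0.137 without that library.

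**Figure D4:**
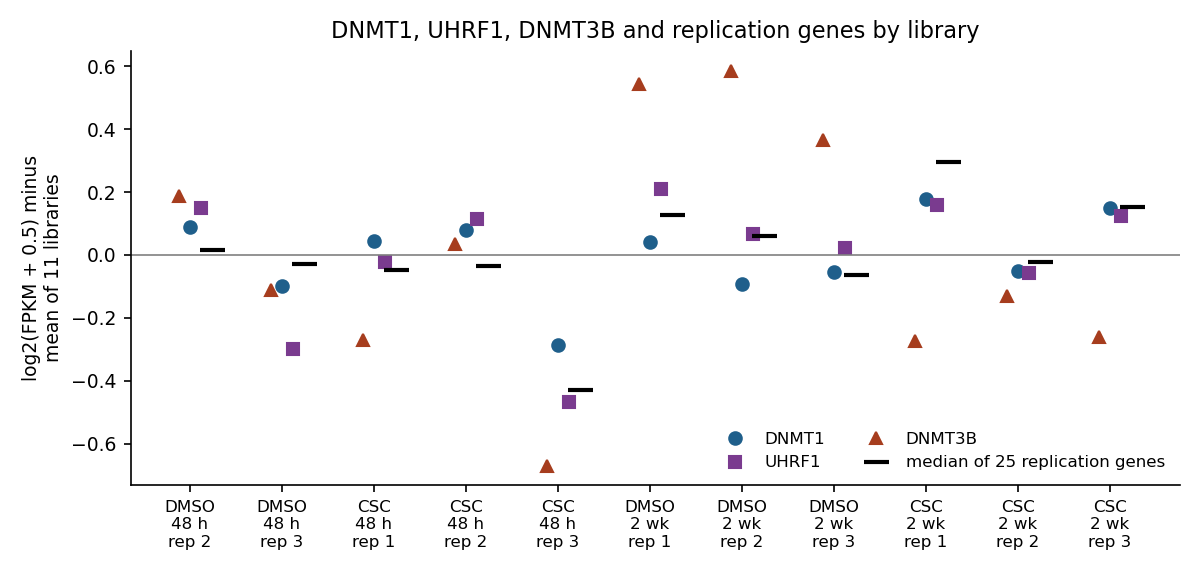
Level of DNMT1, UHRF1 and DNMT3B in each of the 11 libraries as log2(FPKM + 0.5) minus the gene's mean over all libraries (vertical axis), with a black bar for the median of the 25 replication genes. In CSC 48 hours replicate 3 the values are -0.29 for DNMT1, -0.47 for UHRF1, -0.67 for DNMT3B and -0.43 for the replication median.

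For each member the most alike genes over the 11 libraries were read from the whole table. For DNMT1 these were FOXM1, a transcription factor of proliferating cells (r = 0.975), TOMM40 and the histone gene H2AFX. For UHRF1 they were the RNA export factor NXF1 (r = 0.968), the mitotic kinesin KIF14 and BTBD1. DNMT3B was most like LPCAT1, an acyltransferase of phosphatidylcholine synthesis (r = 0.982), ahead of CAPN12 and CLN6. LPCAT1 stood at 48.7 ± 2.83 FPKM (SD, n = 3) in DMSO and 23.95 ± 2.16 in CSC at 2 weeks. It was picked for its likeness to DNMT3B over the same libraries, so that difference is a description and carries no test. DNMT3A was closest to SMURF1 (r = 0.956), MBD2 to TRIAP1 (0.972), TDG to KRT85 (0.952), TET1 to C9orf129 (0.924), TET2 to the histone demethylase gene KDM5B (0.952) and TET3 to ASAP1 (0.942). All these genes were picked as the highest of the whole table, so their coefficients are high by choice. The 99th percentile over the other tested genes was 0.88 for DNMT1, and it ranged from 0.633 (TET3) to 0.897 (MBD2).

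The other genes of the methylation system were taken from lists chosen by function. At 48 hours no gene of these lists was called, apart from TIPARP and CYP1B1 in the list near smoking-associated CpGs, where 0.288% of all genes were. At 2 weeks 3.01% of all genes were called higher and 2.4% lower. None of the 14 tested maintenance partners, which include the chromatin remodeler HELLS, its activator CDCA7 and the clamp PCNA, was called, with a median of 0.14 against 0.09 for all genes. DNMT3L, the inactive partner of DNMT3A and DNMT3B, was listed at 0 in 9 of 11 libraries and reached at most 0.0660 FPKM. Of 9 methyl-CpG readers 1 fell, ZBTB38, from 27.1 ± 0.896 to 20.0 ± 1.17 FPKM (-0.43, adjusted p = 0.0436, limma), a call lost, with an adjusted p of up to 0.148, in 8 of 11 fits that left out a library. Those were both DMSO libraries and CSC replicate 1 at 48 hours, and every 2-week library except CSC replicate 2.

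In the NuRD complex, the partner of MBD2, 2 of 12 genes rose at 2 weeks, with a list median of 0.14. HDAC1, a histone deacetylase, went from 23.7 ± 0.140 to 32.6 ± 3.85 FPKM (0.45, adjusted p = 0.0298) and MTA3 from 12.8 ± 1.55 to 18.1 ± 1.41 (0.49, adjusted p = 0.0299, limma). Neither was called with a common sum of FPKM, nor MTA3 after quantile normalization. The HDAC1 call was lost without any 2-week library except CSC replicate 2 (adjusted p of up to 0.112), and the MTA3 call without DMSO replicate 1 or 3 or CSC replicate 1 or 3 (up to 0.136). In base excision repair and cytosine deamination 2 of 14 rose, with a median of 0.16. APOBEC3B, a cytidine deaminase, went from 4.52 ± 0.659 to 7.73 ± 0.700 FPKM (0.72, adjusted p = 0.00569, limma) and kept its call whichever single library was left out. The repair polymerase POLB rose by 0.44 (adjusted p = 0.0262) and lost its call under all 3 other scalings and without any 2-week library except CSC replicate 2 (up to 0.111).

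None of the 14 genes of TET cofactor supply and TET control was called, with a median of 0.23. In the methyl donor cycle 1 of 9 rose, with a median of 0.30. It was CBS, which draws homocysteine out of that cycle, at 5.93, 5.80 and 5.996 FPKM in DMSO and 17.3, 12.5 and 15.6 in CSC (1.28, adjusted p = 0.016, limma). The CBS call was lost without any 2-week library except CSC replicate 2, with an adjusted p of up to 0.0749. Of 25 replication genes 1 rose, the licensing factor CDT1 (0.49, adjusted p = 0.0378, limma), and the median was 0.06. The CDT1 call was lost under all 3 other scalings and without the same 8 libraries as that of ZBTB38 (adjusted p of up to 0.146).

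**Figure D5:**
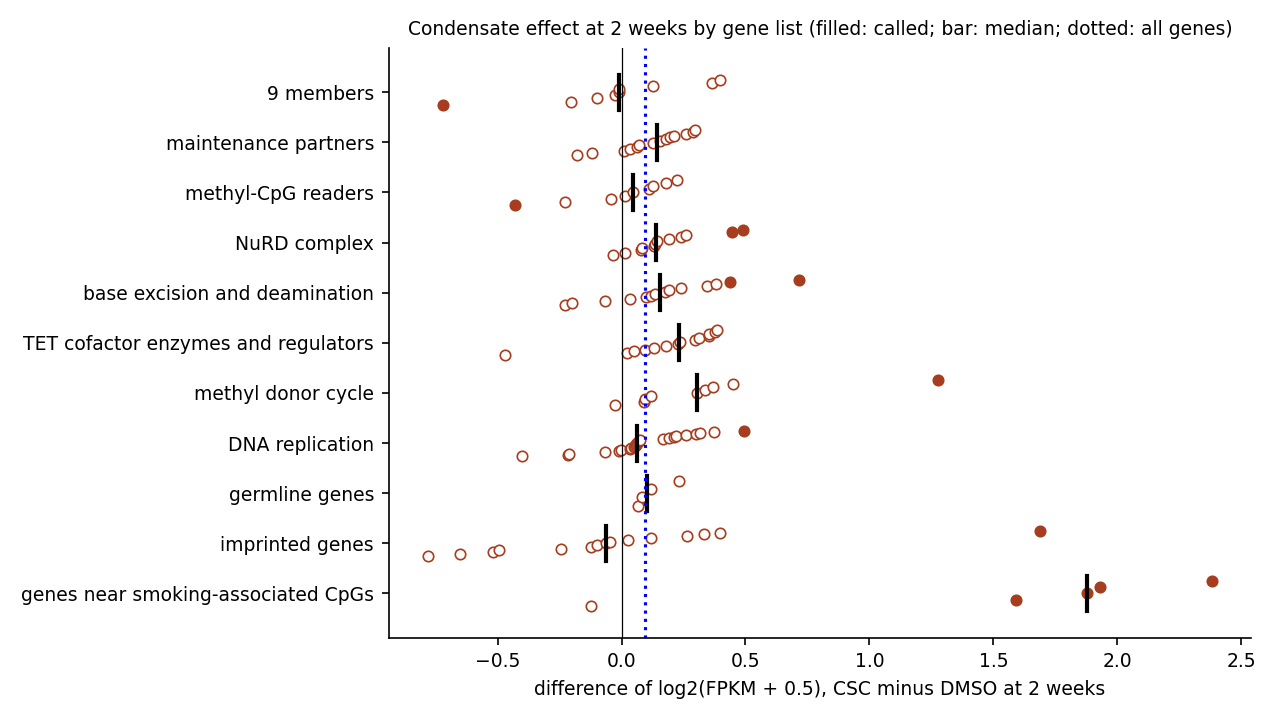
Difference of log2(FPKM + 0.5) between CSC and DMSO at 2 weeks (horizontal axis) for each tested gene of the members and of each list (vertical axis). Filled circles have an adjusted p under 0.05, black bars are list medians and the dotted line is the median of all genes tested, 0.09. The 9 members have a median of -0.01.

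Germline genes, many of which carry methylated promoters in somatic cells, were mostly at low levels. Of 29 germline genes in the files 25 did not pass the level filter and 7 were listed at 0 in every library, and none of the 4 tested (HORMAD1, XAGE1A, MAGEA6 and MAGEA3) was called in either CSC comparison. Members of the MAGEA and XAGE families share near-identical copies, so their reads may be split between them. Of 15 tested imprinted genes 1 rose at 2 weeks, the growth factor gene IGF2, from 2.39 ± 0.280 to 8.78 ± 0.601 FPKM (1.69, adjusted p = 9.4e-05, limma). Of 12 genes near smoking-associated CpGs 7 did not pass the level filter. TIPARP and CYP1B1 were called higher at both durations, against 0.104% of all genes called higher at 48 hours, and both were known to respond in these libraries when the list was made. AHRR, the repressor of the aryl hydrocarbon receptor, was at 0.586, 0.292 and 0.539 FPKM in DMSO and 2.54, 2.34 and 2.33 in CSC at 2 weeks. It passed the level filter through the CSC libraries alone, so no test is given for it.

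On hg19, as the files give them, the loci are DNMT1 at chr19:10244022-10305755, UHRF1 at chr19:4909510-4962165, DNMT3A at chr2:25455830-25565459, DNMT3B at chr20:31350191-31397162 and MBD2 at chr18:51677971-51751158. The TET genes lie at chr10:70320117-70454239 (TET1), chr4:106067032-106200960 (TET2) and chr2:74273450-74335302 (TET3), and TDG at chr12:104359593-104382656. The FPKM is a value for the whole gene and does not separate isoforms, so catalytically inactive DNMT3B forms cannot be told apart from active ones. TET2-AS1 overlaps TET2 on the other strand, and the strand setting is not given in the sources used here, so their reads may be mixed. Processed pseudogenes of DNMT3A, TDG and TET1 are annotated elsewhere, and SNORA37 lies inside MBD2.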

How the data were processed

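The authors deposited 1 file per library with FPKM values per gene and locus and a lower and upper bound, per the file headers. Libraries were made from total RNA after ribosomal RNA depletion and aligned to hg19 with TopHat2 version 2.0.9, per the labels' protocols. CASAVA version 1.7.1a5 is listed in the submitters' processing notes. Which quantifier, annotation and strand setting were used is not given in the sources used here.

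FPKM was summed over loci for 23609 symbols, and 1 symbol with a failed estimate was left out. Genes had to reach an FPKM of 1 in 2 or more libraries, which left 12506, and were tested with limma version 3.58.1 in R version 4.3.3 on log2(FPKM + 0.5), which understates changes of low genes. All 11 libraries entered 1 fit of 4 groups with a mean-variance trend. The call was a Benjamini-Hochberg adjusted p under 0.05 over all genes. Fits were tested on simulated data. Depth in reads is unknown, and relative depth came from the width of the deposited bounds over 11073 lines.

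The members and lists were chosen with earlier results of these data known. Named genes were all 9 members, up to 4 genes per list (by the smaller p of the 2 CSC comparisons), the 3 most alike genes of each member, and AHRR, CYP1B1 and TIPARP. Alternatives were other pseudocounts, filters, scalings, limma options, a replicate block and leaving out libraries.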

Additional observations from a re-analysis of the deposited data

How the results depend on the processing

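The number of members called at 48 hours, between durations in DMSO and for the difference of effects was 0 in every alternative tried. At 2 weeks the count of 1 became 0 without a filter (DNMT3B adjusted p = 0.0738, limma) and with a filter at an FPKM of 5, which DNMT3B does not reach. It became 2 with a common sum of FPKM and 5 with library weights (DNMT1, DNMT3A, TDG and MBD2 as well), and leaving out a replicate gave 0 to 2. Without CSC 48 hours replicate 3 and CSC 2 weeks replicate 2, an alternative chosen after seeing the data, it was 3 (DNMT3A, DNMT3B and MBD2). Between durations in CSC the count of 0 became 4 with library weights, 1 without those 2 libraries (DNMT3A), and 0 to 1 when a replicate was left out. DNMT3B kept its call at 2 weeks in 18 of 24 alternatives, with a log2 difference of -0.64 to -0.83 in all 24. Of 1096 recomputed member differences, 6 lost a call, 14 gained one and none that was called reversed.

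The labels do not say what a replicate number shares, and the libraries met no rule for pairing: 5 of 15 same-numbered pairs had correlated deviations above 0.1, with a median of 0.0461. Among different-numbered pairs it was 6 of 30, with a median of -0.0433. The 5 same-numbered pairs were the 3 pairs of replicate 1 (0.19 to 0.311) and the DMSO and CSC pairs at 48 hours (0.207 and 0.222). The DMSO and CSC pairs of replicates 2 and 3 at 2 weeks were at -0.151 and -0.121. In DMSO at 48 hours the deviations of the 2 libraries mirror each other, so pairs that use them are not separate evidence. The replicate block changed no count of members called (DNMT3B adjusted p = 0.011 at 2 weeks, limma). Over all genes at 2 weeks, 376 were called higher and 300 lower, with 595 and 350 under the block, 264 and 486 with a common sum of FPKM, 3781 and 1799 with library weights and 184 and 229 without a filter. The library weights stopped short of their convergence tolerance, so their counts carry that doubt. A left-out library gave 73 to 1310 higher and 132 to 534 lower. The common sum moved the median of all genes from 0.09 to -0.04 at 2 weeks and from 0.19 to -0.09 between durations in CSC. The causes were not tested. Low levels limit what can be seen for TET1, TET2 and DNMT3B.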
